A study of Mus musculus with 6 samples.

Results

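The CXC chemokine ligands are small secreted proteins that direct leukocyte movement, and 9 of their genes were followed here in large peritoneal macrophages, long-lived phagocytes that reside in the body cavity of mice. The genes Cxcl1, Cxcl2, Cxcl3, Cxcl9, Cxcl10, Cxcl12, Cxcl13, Cxcl14 and Cxcl16 were picked by symbol from the 20336 genes of the deposited table, and all 9 were found. PolyA RNA was sequenced from macrophages sorted after peritoneal lavage, 30 min after E. coli was injected into the peritoneum. The PAC knockout group (3 libraries, genotype label Cxcr3-PAC-/-) lacked the proton-activated chloride channel PAC conditionally, and the floxed control group (3 libraries, genotype label PAC F/F) carried the floxed allele. Both groups were infected, and PBS-treated mice were not analysed here, so no value below measures a response to infection. The genotype label names Cxcr3 as the driver of the deletion whereas the design text names Cx3cr1, and the labels state neither whether the controls carry a driver allele, nor the age of the mice, nor whether each library is 1 mouse. The spread behind each p-value is thus that of 3 libraries a group, and it may be technical.

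CXC chemokines signal through receptors coupled to G proteins and fall into functional classes. Cxcl1, Cxcl2 and Cxcl3 act on the receptor CXCR2 and draw neutrophils, and resident macrophages are known as an early source of them in the infected peritoneum. Cxcl9 and Cxcl10 are induced by interferon and act on CXCR3 of activated T and NK cells. Cxcl12 (receptors CXCR4 and ACKR3), Cxcl13 (receptor CXCR5, on B cells) and Cxcl14 are made in tissues at rest, with Cxcl13 known to guide B1 cells to the body cavities, and Cxcl16 is a membrane-bound ligand of CXCR6 that proteases can shed.

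Total counts ran from 15981530 to 20648832 per library. Levels of a gene are given as CPM, its count as a share of the scaled library total, and 3 counts, the limit that a count of 0 allows, correspond to 0.154 to 0.190 CPM for counting error alone. Tmem206, the older name of the PAC gene, had 4.27, 6.13 and 5.49 CPM in knockout libraries and 6.33, 12.2 and 8.16 CPM in control libraries. Its value in the knockout was lower in each library than in any control library, with a log2 fold change of -0.75 (SE 0.31) and an edgeR adjusted p of 0.997, and -0.45 without control replicate 2. The counts cover the whole gene and not the deleted part alone. Summed over 7 large peritoneal macrophage markers, all of them detected, the libraries held 6660 to 8142 CPM in the knockout and 6229 to 7239 CPM in the control.

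Most of these genes sit in clusters on chromosome 5 (GRCm38, positions as in the deposited table). Cxcl3 (ENSMUSG00000029379, 90786103 to 90789600), Cxcl1 (ENSMUSG00000029380, 90891241 to 90893115) and Cxcl2 (ENSMUSG00000058427, 90903871 to 90905938) lie on the plus strand, with 10.8 kb between Cxcl1 and Cxcl2. Cxcl9 (ENSMUSG00000029417, 92321347 to 92328079) and Cxcl10 (ENSMUSG00000034855, 92346638 to 92348889) lie on the minus strand 18.6 kb apart, and Cxcl13 (ENSMUSG00000023078, 95956951 to 95961068) stands alone on the plus strand. Cxcl12 is on chromosome 6 (ENSMUSG00000061353, 117168535 to 117181367, plus strand), Cxcl14 on chromosome 13 (ENSMUSG00000021508, 56288643 to 56296551, minus strand) and Cxcl16 on chromosome 11 (ENSMUSG00000018920, 70453983 to 70459984, minus strand).

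The promoters of the 5 ligands of the neutrophil-attracting and interferon-induced classes are printed to show which of them share an NF-kappaB motif, the binding motif of the main transcription factor family of the early inflammatory response. Each is the 250 bases before the transcript start, 5′ to 3′ on the gene's strand, from RefSeq (GRCm38.p6), in capitals where a 10-base NF-kappaB consensus or the interferon-response motif (GAAA, any 2 bases, GAAA) matched on either strand. Their positions are chr5:90890995-90891244 (plus), chr5:90903649-90903898 (plus), chr5:90785851-90786100 (plus), chr5:92328080-92328329 (minus) and chr5:92348890-92349139 (minus), in the order below.
Cxcl1: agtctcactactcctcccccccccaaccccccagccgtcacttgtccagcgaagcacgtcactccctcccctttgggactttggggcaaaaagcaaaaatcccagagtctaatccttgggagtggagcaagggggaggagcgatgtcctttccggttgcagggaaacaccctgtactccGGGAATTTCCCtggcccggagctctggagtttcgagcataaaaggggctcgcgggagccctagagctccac
Cxcl2: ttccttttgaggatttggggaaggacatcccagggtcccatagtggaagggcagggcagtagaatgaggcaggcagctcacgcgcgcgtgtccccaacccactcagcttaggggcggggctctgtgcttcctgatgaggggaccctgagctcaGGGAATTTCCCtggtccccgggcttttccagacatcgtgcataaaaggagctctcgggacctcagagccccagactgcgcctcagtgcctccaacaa
Cxcl3: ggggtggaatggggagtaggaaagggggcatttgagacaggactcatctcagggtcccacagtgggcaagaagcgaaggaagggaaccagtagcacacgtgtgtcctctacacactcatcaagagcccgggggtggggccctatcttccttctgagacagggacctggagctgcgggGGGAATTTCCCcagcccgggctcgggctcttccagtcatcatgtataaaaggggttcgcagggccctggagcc
Cxcl9: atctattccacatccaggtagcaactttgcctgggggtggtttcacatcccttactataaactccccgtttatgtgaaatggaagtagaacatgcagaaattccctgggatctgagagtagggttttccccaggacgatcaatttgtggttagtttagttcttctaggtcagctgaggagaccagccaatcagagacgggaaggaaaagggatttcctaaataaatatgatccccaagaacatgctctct
Cxcl10: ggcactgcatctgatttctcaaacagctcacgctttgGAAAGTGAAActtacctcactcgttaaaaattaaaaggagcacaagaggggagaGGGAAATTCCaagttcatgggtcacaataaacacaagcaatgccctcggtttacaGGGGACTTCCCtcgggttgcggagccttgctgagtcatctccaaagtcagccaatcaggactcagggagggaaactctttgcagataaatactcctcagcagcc

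The 3 neutrophil attractants held the same 11 letters, GGGAATTTCCC, in which the consensus matched on both strands. The match began 71 bases before the RefSeq start in Cxcl1, 97 in Cxcl2 and 73 in Cxcl3. The Cxcl2 window runs to 90903898, past the gene start of 90903871 given above. The larger distance in Cxcl2 thus depends on the start used. Cxcl10 held the consensus at 2 separate places, beginning 159 and 104 bases before the start, and the interferon-response motif at 213 bases. The Cxcl9 window held neither. Among the 8 members with a RefSeq promoter, 4 held the NF-kappaB consensus (Cxcl1, Cxcl2, Cxcl3 and Cxcl10), which occurs in 7.25% of 32851 promoter windows of the same length. The interferon-response motif was in 2 of the 8, Cxcl10 and Cxcl14, and in 2.98% of all windows. These are letter matches and do not show binding.

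The 3 neutrophil attractants also share AU-rich 3′ ends, a feature by which short-lived messages of cytokines are marked for decay. In the coding transcripts of GENCODE M21, the pentamer ATTTA occurred 7 times in the 592 bases of the Cxcl1 3′ UTR, 11 times in the 734 bases of Cxcl2 and 5 times in the 645 bases of Cxcl3. Per length, these densities were above those of 99.1%, 99.5% and 97.2% of 20487 genes with a 3′ UTR of at least 20 bases. The longer form TATTTAT occurred 6 times in Cxcl1, 7 times in Cxcl2 and 2 times in Cxcl3, and 25.6% of those genes held it at all. Of the other 6 members only Cxcl12 held it, 1 time, and Cxcl14 held no ATTTA. The densest 30-base stretches are shown with ATTTA in capitals, on the plus strand of GRCm38 at chr5:90892602-90892631, chr5:90905327-90905356 and chr5:90787629-90787658.
Cxcl1: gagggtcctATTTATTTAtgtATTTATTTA
Cxcl2: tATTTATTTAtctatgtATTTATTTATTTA
Cxcl3: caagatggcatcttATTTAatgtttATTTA

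Cxcl2 and Cxcl1 were among the most abundant transcripts of these macrophages. Levels of different genes were compared per length, as the FPKM (the count scaled by gene length and by mapped reads) of the deposited table. Cxcl2 had 2734 to 4223 FPKM over the 6 libraries and ranked between 6th and 9th of all genes in the table. Cxcl1 had 1088 to 2167 FPKM and ranked between 17th and 47th. Cxcl10 (223 to 398 FPKM) and Cxcl13 (155 to 446 FPKM) followed, and their ranges overlapped, with Cxcl10 above Cxcl13 in 5 of 6 libraries. Far below them, Cxcl3 (5.21 to 23.0 FPKM) and Cxcl16 (8.29 to 17.4 FPKM) could not be ordered, and Cxcl14 (3.59 to 6.68 FPKM) and Cxcl12 (2.36 to 4.35 FPKM) overlapped as well. Cxcl9 was the lowest, at 0.259 to 0.854 FPKM. Cxcl1 and Cxcl2 together took 0.826%, 0.880% and 0.940% of all counts in knockout replicates 1, 2 and 3, and 1.05%, 0.754% and 0.858% in control replicates 1, 2 and 3, so the groups overlapped.

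The order depends in part on the gene length used, which in the table includes retained introns (1875 bases for Cxcl1, against 953 bases in its coding transcript). With the coding transcript length in place of the table's, Cxcl10 lay above Cxcl13 in 6 of 6 libraries with ranges that did not overlap, at 459 to 820.0 against 155 to 446 on the FPKM scale. Cxcl3, whose length shrank to 1016 from 3498 bases, then lay above Cxcl16 in 6 of 6 libraries, at 17.9 to 79.1 against 9.28 to 19.5, with ranges that still overlapped. Cxcl12 then lay above Cxcl14 in 3 of 6 libraries. The 4 most abundant and the least abundant ligand were the same under both lengths.

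**Figure D1:**
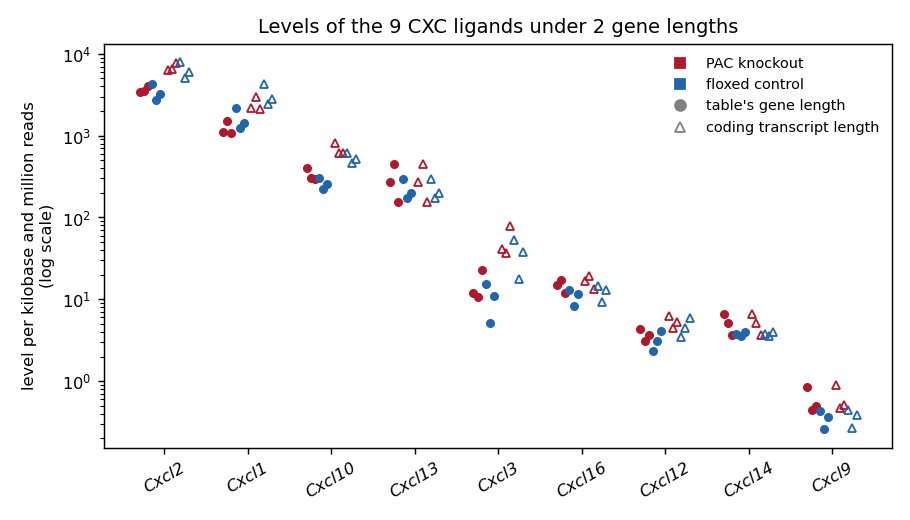
Level of each CXC ligand in each library (y axis, FPKM scale, log axis), with the gene length of the deposited table (filled circles) and the coding transcript length (open triangles); PAC knockout in red, floxed control in blue. Cxcl2 and Cxcl1 lie at the top and Cxcl9 at the bottom under both lengths, and Cxcl3 shifts most between them.

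No CXC ligand passed the test for a difference between PAC knockout and floxed control macrophages, and all 9 had passed the filter on low counts. edgeR's quasi-likelihood test, fitted over 12786 genes, called 0 of the 9 members at an adjusted p under 0.05, where it called 0 of all genes (0%). At an unadjusted p under 0.05 stood 2 members, Cxcl10 and Cxcl16, both higher in the knockout. That count was 0 without knockout replicate 1 or without control replicate 3, 4 without knockout replicate 3, and 1 with DESeq2 or without control replicate 2. Of all tested genes 4.18% had such a p, 2.09% with a higher and 2.09% with a lower value in the knockout. DESeq2 and limma-voom also called 0 of the 9, while DESeq2 called 22 genes in all and limma-voom 0. The fitted log2 fold change, knockout over control, was above 0 for 8 of the 9 and below 0 for Cxcl1, where 48.8% of all tested genes were above 0. The median of the 9 was 0.40, and that of all tested genes was -0.0079. Without knockout replicate 1 the median of the 9 was 0.23, and without control replicate 2 it was 0.24. In 2 members, Cxcl9 and Cxcl10, the groups did not overlap and the knockout was higher, as in 4.47% of all tested genes. Groups did not overlap with a lower knockout in 4.86%, and in either direction in 9.33%. With 3 libraries against 3, the exact permutation test of a single gene cannot give less than p = 0.10. In RNA from a sorted population, fewer expressing cells and less RNA per cell cannot be told apart.

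**Figure D2:**
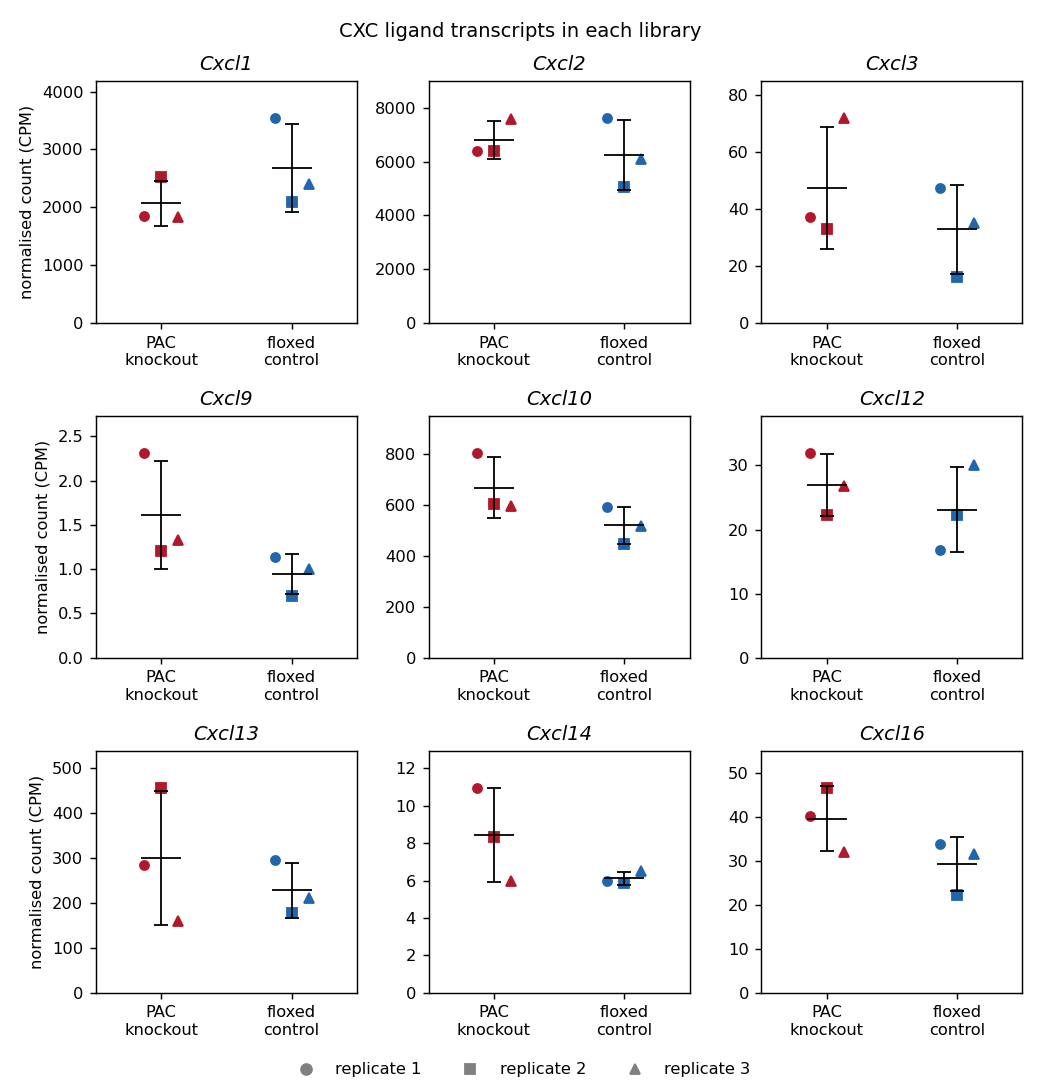
Normalised count (CPM, y axis from 0) of each of the 9 ligands in each library; knockout libraries in red at the left of each panel, control libraries in blue, bars the mean and SD of 3 libraries, marker shape the replicate number. The groups separate in Cxcl9 and Cxcl10 and overlap in the other 7.

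**Figure D3:**
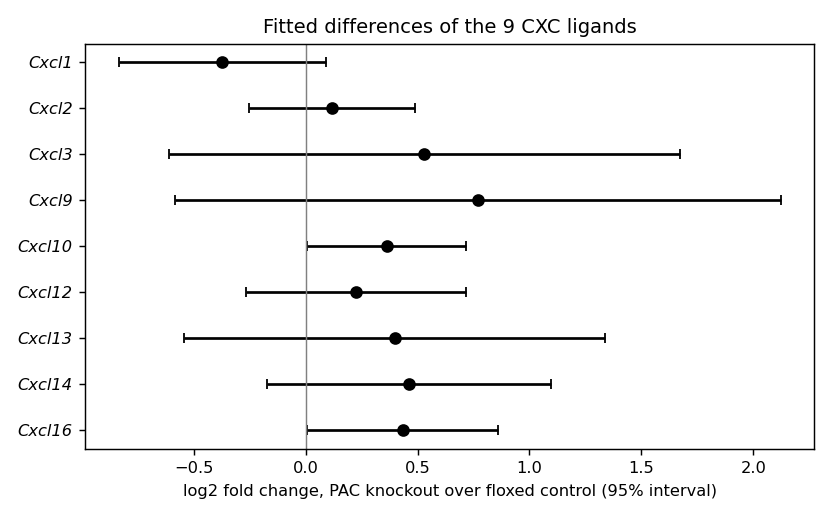
Fitted log2 fold change of each ligand, PAC knockout over floxed control (x axis), with its 95% interval from edgeR; the vertical line marks no difference. The intervals of Cxcl10 and Cxcl16 lie just above 0 before adjustment for the genes tested, and the other 7 span it.

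Among the neutrophil attractants, Cxcl2 had knockout values inside the control range, and Cxcl1 had a lower mean in the knockout with overlapping groups. Cxcl2, also called MIP-2, had 6387, 6373 and 7597 CPM in knockout replicates 1, 2 and 3, against 7621, 5041 and 6102 CPM in the control replicates. Control replicates held both the highest and the lowest of the 6 values. The means were 6786 ± 703 CPM in the knockout and 6255 ± 1297 CPM in the control (SD, n = 3 each), with a log2 fold change of 0.12 (SE 0.17, 95% interval -0.25 to 0.49). The interval leaves room for a moderate difference in either direction, and without control replicate 2 the value was -0.014.

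Cxcl1, also called KC, had 1856, 2519 and 1831 CPM in the knockout replicates and 3545, 2084 and 2405 CPM in the control replicates. Control replicate 1 stood apart as the highest of the 6, and knockout replicate 2 lay within the control range. The means were 2069 ± 390.1 CPM in the knockout and 2678 ± 767 CPM in the control (SD, n = 3 each). Its log2 fold change was -0.37 (SE 0.21, 95% interval -0.84 to 0.09), with an edgeR adjusted p of 0.997 and an exact permutation p of 0.30. Without control replicate 1 it was -0.12.

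Cxcl3, a close relative of Cxcl2, was far less abundant, and its highest library was 2.18 times its lowest in the knockout and 2.91 times in the control. It had 37.3, 33.1 and 72.1 CPM in the knockout replicates, against 47.3, 16.2 and 35.1 CPM in the control replicates. Knockout replicate 3 was the highest and control replicate 2 the lowest, and the groups overlapped. The log2 fold change was 0.53 (SE 0.47, 95% interval -0.61 to 1.67), and it was 0.10 without knockout replicate 3. Of the 50-base stretches in Cxcl3 transcripts, 3.51% also occur in Cxcl2 transcripts and none in those of Cxcl1. How the authors counted reads that match both genes is unknown, so the Cxcl3 value is uncertain beside the much higher Cxcl2 count.

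The interferon-induced ligands, Cxcl9 and Cxcl10, had higher CPM in every knockout library than in any control library, where 4.47% of all tested genes separated this way. Cxcl10, also called IP-10, had 806, 604 and 597 CPM in the knockout replicates, against 594, 448 and 519.9 CPM in the control replicates. Knockout replicates 2 and 3 lay just above control replicate 1, and knockout replicate 1 was the highest of the 6. The means were 669 ± 119 CPM in the knockout and 520.4 ± 73.0 CPM in the control (SD, n = 3 each), a log2 fold change of 0.36 (SE 0.16, 95% interval 0.0063 to 0.72). The edgeR p was 0.0467 before and 0.997 after adjustment over all genes, and the exact permutation p was 0.10. Without knockout replicate 1 the log2 fold change was 0.21. Of its exon bases, 5.91% overlap those of Art3 on the other strand, which had 3 to 23 counts per library.

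Cxcl9, also called MIG, was barely detected. Its counts were 39, 19 and 24 in the knockout replicates and 22, 12 and 19 in the control replicates, or 2.31, 1.20 and 1.33 CPM against 1.13, 0.696 and 1.00 CPM. Knockout replicate 1 was again the highest, and the groups were separated by less than 0.1 CPM at the boundary. There, knockout replicate 2 held 19 counts and control replicate 1 held 22, so their order is uncertain from counting error alone. The log2 fold change was 0.77 (SE 0.61, 95% interval -0.59 to 2.13), with an edgeR adjusted p of 0.997, and without knockout replicate 1 it was 0.42. Summed markers of T and NK cells, the cells that CXCR3 ligands draw, stood at 0.388 to 1.90 CPM in the knockout and 0.421 to 1.80 CPM in the control.

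The ligands made at rest had overlapping groups. Cxcl13, the B cell attractant, had 284, 455 and 159.5 CPM in the knockout replicates and 296, 176 and 210.3 CPM in the control replicates. Knockout replicates held both the highest and the lowest of the 6 values, and the highest was 2.85 times the lowest. The log2 fold change was 0.40 (SE 0.39, 95% interval -0.55 to 1.34), and without knockout replicate 2 its sign turned, to -0.038. Summed B cell markers, all 7 of them detected, were 116, 24.3 and 61.9 CPM in the knockout replicates and 33.0, 204 and 20.1 CPM in the control replicates. The library with most Cxcl13, knockout replicate 2, was thus among those with the least B cell RNA.

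Cxcl12, the ligand of CXCR4, had 32.0, 22.2 and 26.7 CPM in the knockout replicates and 16.8, 22.3 and 30.1 CPM in the control replicates. The groups overlapped, and the log2 fold change was 0.22 (SE 0.22, 95% interval -0.27 to 0.72). It was 0.042 without control replicate 1, 0.085 without knockout replicate 1 and 0.47 without control replicate 3. Cxcl14, an epithelial and stromal chemokine, had 10.97, 8.35 and 5.99 CPM in the knockout replicates and 5.97, 5.86 and 6.53 CPM in the control replicates. The control libraries lay close together while knockout replicates 1 and 2 were above them and knockout replicate 3 among them. Its log2 fold change was 0.46 (SE 0.29, 95% interval -0.17 to 1.10), and 0.23 without knockout replicate 1. Summed markers of mesothelial and stromal cells, common sources of both ligands, were 9.31, 4.81 and 2.16 CPM in the knockout replicates and 6.49, 3.71 and 2.63 CPM in the control replicates. All 8 of these markers were detected in some library, with Msln at 0 in the 3 control libraries, and their part in the Cxcl12 and Cxcl14 values was not tested.

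Cxcl16, the membrane-bound ligand that also serves macrophages as a scavenger receptor for oxidised lipid, had 40.2, 46.7 and 32.0 CPM in the knockout replicates. The control replicates held 34.0, 22.3 and 31.6 CPM. Knockout replicates 1 and 2 exceeded every control library, and knockout replicate 3 lay between control replicates 1 and 3. The means were 39.6 ± 7.39 CPM in the knockout and 29.3 ± 6.16 CPM in the control (SD, n = 3 each), with a log2 fold change of 0.43 (SE 0.19, 95% interval 0.0076 to 0.86). The edgeR p was 0.0467 before and 0.997 after adjustment, and without control replicate 2 the log2 fold change was 0.28. Of the exon bases of Cxcl16, 18.3% overlap those of Zmynd15 on the other strand, which had 112, 119 and 115 counts in the knockout replicates and 100, 77 and 45 counts in the control replicates. The strand setting of the counting is unknown, so reads of the overlap cannot be told apart.

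**Figure D4:**
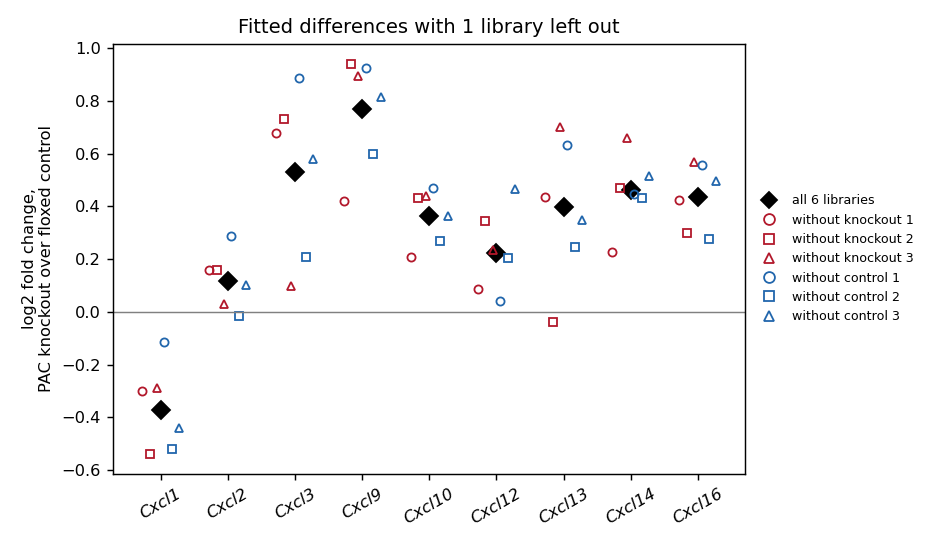
Log2 fold change of each ligand, PAC knockout over floxed control (y axis), with all 6 libraries (black diamond) and with 1 library left out (open symbols; red for a knockout and blue for a control library left out, shape by replicate number). Cxcl2 and Cxcl13 cross 0, Cxcl1 stays below it and the other 6 stay above it.

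Ratios of 2 ligands within a library do not depend on how libraries are scaled, and 5 were computed, chosen with the values known. For each 100 counts of Cxcl2 there were 29.05, 39.5 and 24.1 counts of Cxcl1 in the knockout replicates, against 46.5, 41.3 and 39.4 in the control replicates. Knockout replicates 1 and 3 lay below every control library, and knockout replicate 2 just above the lowest of them. The means were 30.9 ± 7.87 in the knockout and 42.4 ± 3.67 in the control (SD, n = 3 each), with a two-sided exact permutation p of 0.20 (0.50 adjusted over the 5 ratios). Cxcl9 stood at 0.287, 0.199 and 0.223 counts per 100 of Cxcl10 in the knockout replicates and 0.191, 0.155 and 0.192 in the control replicates. The groups did not overlap, with an exact permutation p of 0.10, the smallest possible, and 0.50 adjusted. Knockout replicate 2 and control replicate 3, which meet at the boundary, each rest on 19 Cxcl9 counts. Their order is therefore uncertain from counting error alone. Cxcl3 per Cxcl2, Cxcl3 per Cxcl1 and Cxcl12 per Cxcl13 overlapped between the groups, with exact permutation p-values of 0.50, 0.30 and 1.

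**Figure D5:**
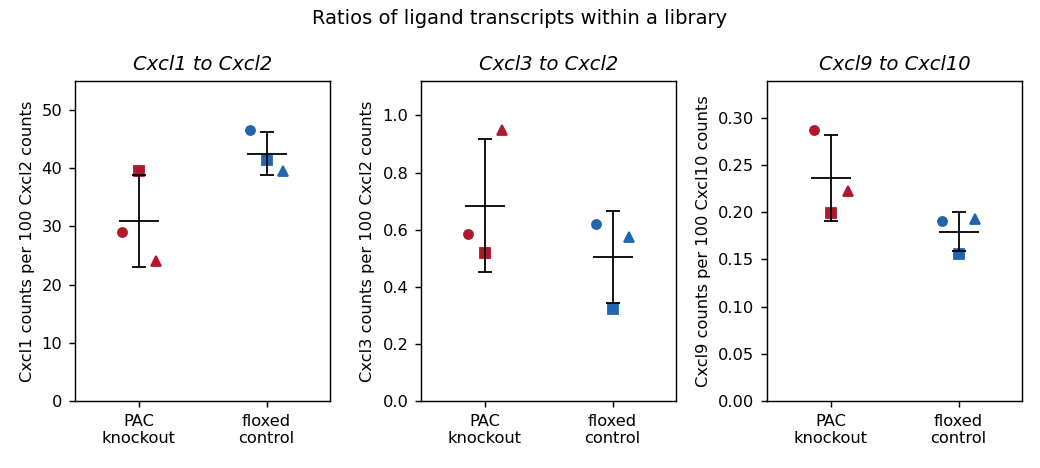
Counts of 1 ligand per 100 counts of another in the same library (y axes from 0) for Cxcl1 to Cxcl2, Cxcl3 to Cxcl2 and Cxcl9 to Cxcl10; knockout in red at the left, control in blue, bars the mean and SD of 3 libraries. Knockout replicates 1 and 3 have the lowest Cxcl1 to Cxcl2 ratios, and the Cxcl9 to Cxcl10 ratio separates the groups by a narrow margin at low Cxcl9 counts.

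Other genes of the family were mostly silent. Of 6 further CXC ligand genes, 4 were in the table and only Pf4 passed the filter on low counts. Pf4, platelet factor 4, which resident macrophages also make, had 509, 519.8 and 683 CPM in the knockout replicates and 417, 425 and 590.1 CPM in the control replicates. The groups overlapped, and the log2 fold change was 0.26 (SE 0.17), and 0.11 without knockout replicate 3. Cxcl5, a further CXCR2 ligand, had 0 to 1 count per knockout library and 0 to 4 counts per control library, and Ppbp, a platelet chemokine, had 0 in each library except 3 counts in control replicate 3. Cxcl11, annotated as a polymorphic pseudogene, had 0, 6 and 5 counts in the knockout replicates and 16, 11 and 0 in the control replicates. Cxcl15 and Cxcl17 were not analysed here.

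Among the receptors of these ligands, the atypical receptor Ackr3, which takes up Cxcl12, was the most abundant by count. It had 147, 156 and 105 CPM in the knockout replicates and 179, 118 and 175 CPM in the control replicates, with overlap and a log2 fold change of -0.21 (SE 0.19). Its value ran to -0.05 without knockout replicate 3 and to -0.38 without control replicate 2. Of 8 receptor genes, 7 were in the table, 4 were tested and 0 were called, and Ackr1 was not analysed here. Cxcr2, the receptor of the neutrophil attractants, had 6, 35 and 0 counts in the knockout replicates and 8, 9 and 0 in the control replicates, and Cxcr1 had 2, 0 and 0 counts in the knockout replicates and 0 in each control library. Cxcr3, the receptor of Cxcl9 and Cxcl10 and the driver named in the genotype label, had 16, 13 and 0 counts in the knockout replicates and 0, 6 and 4 in the control replicates, too few to pass the filter.

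The remaining receptors varied with the library. Cxcr5, the receptor of Cxcl13 on B cells, had 11.1, 1.58 and 3.77 CPM in the knockout replicates and 2.01, 16.1 and 2.11 CPM in the control replicates, and the 2 highest values were in the libraries with most B cell marker RNA. Cxcr4 had 32.3, 8.85 and 11.4 CPM in the knockout replicates and 22.1, 12.9 and 6.27 CPM in the control replicates. Cxcr6, the receptor of Cxcl16, had 34, 13 and 0 counts in the knockout replicates and 17, 4 and 8 in the control replicates. For Cxcr4, Cxcr5 and Cxcr6 the sign of the log2 fold change turned with single libraries left out.

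Genes that control CXC ligand transcription, decay and processing were examined as 4 lists, and edgeR, with its default filter on low counts, called 0 genes in any of them. In the list of interferon receptors and factors, 9 of 13 tested genes had a log2 fold change above 0, and their median of 0.25 became 0.10 when knockout replicate 1 was left out. An unadjusted edgeR p under 0.05 was found for 4 of these 13, where 4.18% of all tested genes had one. Irf7, a transcription factor of the interferon response, had 64.3, 55.7 and 36.5 CPM in the knockout replicates and 39.6, 38.7 and 36.3 CPM in the control replicates. Knockout replicates 1 and 2 exceeded every control library, and the log2 fold change was 0.45 (SE 0.19), and 0.27 without knockout replicate 1. The edgeR p of Irf7 was 0.0387 before and 0.997 after adjustment. Irf1, which activates the Cxcl9 and Cxcl10 promoters and was the most abundant of the list by count, had 565, 397 and 385 CPM in the knockout replicates and 265, 465 and 367 CPM in the control replicates. The groups overlapped for Irf1, whose log2 fold change of 0.30 (SE 0.22) became 0.096 without knockout replicate 1, as they did for the kinase Jak1, the next by count.

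NF-kappaB factors and inhibitors had 4 of 12 genes above 0 and a median of -0.09, which ran from -0.18 without control replicate 3 to 0.07 without control replicate 1. Nfkbiz, an inducible cofactor of NF-kappaB, had 3776, 4093 and 4029 CPM in the knockout replicates and 4623, 4603 and 4138 CPM in the control replicates. The groups did not overlap, where 4.86% of all tested genes separated with a lower knockout, and the log2 fold change was -0.17 (SE 0.13). Bcl3, a nuclear member of the inhibitor family, stood at -0.34 (SE 0.27), and at -0.12 without control replicate 1 and -0.67 without knockout replicate 3. Tnfaip3, the NF-kappaB inhibitor A20, had 3258, 3864 and 3085 CPM in the knockout replicates and 3753, 2972 and 2722 CPM in the control replicates, with overlap. None of the 12 had an unadjusted p under 0.05, and none of the 8 in the next list. Regulators of chemokine mRNA decay had 3 of 8 genes above 0 and a median of -0.04, which was 0.012 without control replicate 1. Zfp36, which encodes tristetraprolin, the protein that binds AU-rich ends of such messages, was the most abundant of them by count, at 4334, 5813 and 4792 CPM in the knockout replicates and 4633, 5197 and 4324 CPM in the control replicates. Log2 fold changes were 0.08 (SE 0.15) for Zfp36, 0.08 (SE 0.13) for its relative Zfp36l2, 0.28 (SE 0.23) for Zfp36l1 and -0.23 (SE 0.16) for Rc3h1, which encodes roquin. Zfp36l1 stood at 0.028 without knockout replicate 1 and Rc3h1 at -0.076 without control replicate 1.

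Proteases that shed or trim CXC ligands had 2 of 6 tested genes above 0 and a median of -0.10, which ran from -0.33 without control replicate 1 to 0.22 without knockout replicate 3. Adam10, which sheds Cxcl16, had 196, 174 and 210.1 CPM in the knockout replicates and 199.5, 201 and 203 CPM in the control replicates, with overlap. Adam17, a related sheddase, had 158, 157 and 155 CPM in the knockout replicates and 143, 136 and 127 CPM in the control replicates. Its groups did not overlap, where 4.47% of all tested genes separated with a higher knockout, and its log2 fold change was 0.21 (SE 0.12). Mmp9, a gelatinase that can cleave CXC ligands, had 33.0, 37.1 and 49.2 CPM in the knockout replicates and 71.7, 93.9 and 41.2 CPM in the control replicates. Knockout replicate 3 lay above control replicate 3, and the log2 fold change was -0.79 (SE 0.29), the only one of this list with an unadjusted p under 0.05 (0.0264 by edgeR, 0.997 adjusted). Mmp9 stood at -0.50 without control replicate 2.

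The genes whose log2 CPM followed a ligand most closely over the 6 libraries were found for 1 ligand of each class, by the root mean square difference after centring. Closest to Cxcl10 among 10134 genes were Psme1, a proteasome activator subunit (0.06 log2 units), Tapbpl, an editor of peptides on MHC class I (0.07), and the class I gene H2-Q4 (0.07), where the median gene lay at 0.33. Closest to Cxcl2 were Dld, a mitochondrial dehydrogenase subunit (0.04), Srfbp1 (0.05) and Rasa2, a Ras GTPase-activating protein (0.05), with a median of 0.29. Closest to Cxcl13 were Usp35 (0.11), the RNA polymerase subunit gene Polr2i (0.16) and Peli3 (0.17), with a median of 0.55. These are the nearest of many genes over 6 libraries and are given as a description.

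Several ligands had their highest or lowest value in the same library, and how often this holds among all tested genes was not counted. Knockout replicate 1 was the highest of the 6 libraries for 4 of the 9 ligands (Cxcl9, Cxcl10, Cxcl12 and Cxcl14), and control replicate 2 was the lowest for 6 (Cxcl2, Cxcl3, Cxcl9, Cxcl10, Cxcl14 and Cxcl16). These were also the libraries of each group with most B cell marker RNA, at 116 CPM in knockout replicate 1 and 204 CPM in control replicate 2. Left out together, they gave a median log2 fold change of 0.20 over the 9 ligands, with 8 of 9 still above 0 and 0 called by edgeR. Mast cell markers summed to 33.2, 9.74 and 2.11 CPM in the knockout replicates and 3.35, 4.35 and 7.21 CPM in the control replicates. Markers of small peritoneal macrophages and monocytes, which included Ccr2, summed to 39.5 to 81.5 CPM in the knockout and 119.5 to 281 CPM in the control, without overlap. The median log2 fold change of the 5 tested genes of this list was -1.57, and 0 were called. In 4 of these 5 the groups did not overlap and the knockout was lower, where 4.86% of all tested genes separated this way. Ccr2 and Lyve1 made up most of the sum, and Folr2 overlapped between the groups. Ly6c2, at 0 to 0.928 CPM, was too low to be tested. Neutrophil markers, of which Csf3r made up most and is also expressed by macrophages, summed to 299.6 to 436 CPM in the knockout and 291 to 368 CPM in the control, and Ly6g was at 0 in 5 of 6 libraries. The neutrophil calprotectin genes were low but had higher CPM in every knockout library than in any control library. Of all tested genes 4.47% separated this way, and S100a9 was too low to be among those tested. S100a8 had 3.38, 6.13 and 4.71 CPM in the knockout replicates and 3.29, 2.49 and 1.16 CPM in the control replicates, with an unadjusted edgeR p of 0.0464 and an adjusted p of 0.997. S100a9 had 2.55, 3.48 and 0.499 CPM in the knockout replicates and 0.463, 0 and 0 CPM in the control replicates. At the S100a9 boundary, knockout replicate 3 and control replicate 1 each held 9 counts, so their order rests on library scaling. At the S100a8 boundary, knockout replicate 1 held 57 counts and control replicate 1 held 64. Both orders are therefore uncertain from counting error alone. The other neutrophil markers, Csf3r, Mmp8, Camp, Ltf and Ly6g, overlapped between the groups. Camp had 0, 0.126 and 0 CPM in the knockout replicates and 0.0515, 0.522 and 0.263 CPM in the control replicates. Ltf had 0, 1.33 and 0 CPM against 0.309, 0.290 and 0.684 CPM. The part of these cells in the ligand values was not tested.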

How the data were processed

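PolyA RNA of sorted large peritoneal macrophages was measured in 3 PAC knockout and 3 floxed control libraries, grouped by their titles. Per the submitters' processing notes, HISAT2 2.0.5, featureCounts 1.5.0-p3 and the build GRCm38 were used; the notes seen here give no annotation release, strand setting or treatment of multi-mapping reads. The raw counts in the deposited table were tested. FPKM values in the deposited table, based on its gene lengths per the labels' protocols, served to compare genes. The normalised signal in the authors' table, the count divided by a size factor per library, and the authors' deposited log2 fold changes and p-values entered no result. Columns of other samples numbered 0. Depth was 15981530 to 20648832 counts per library, and no libraries agreed within sampling noise (chi-square per gene at least 23.5).

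edgeR 4.0.16 in R 4.3.3 (default expression filter, TMM scaling, robust quasi-likelihood test, genotype as the only term, Benjamini-Hochberg adjustment over 12786 genes at 0.05) gave fold changes; the SE came from the F statistic, and CPM used TMM-scaled totals. The permutation tests and likeness used log2(CPM + 1). The fit was tested on simulated data. Alternatives were DESeq2-type size factors, library totals, no filter, a stricter filter (CPM of at least 1 in 3 libraries), DESeq2 1.42.0, limma 3.58.1 voom with quality weights, the replicate number as a block, leaving out any 1 library and a threshold of 0.1; leaving out both libraries richest in B cell RNA was added after seeing the data.

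Named were the 9 members, all genes of the ligand and receptor lists, the targeted gene, up to 2 genes of smallest p and up to 2 of highest level in each other list, and the 3 genes closest to Cxcl2, Cxcl10 and Cxcl13 (average log2 CPM of at least 1). Art3, Zmynd15 and the marker genes Msln, Ccr2, Lyve1, Folr2, Ly6c2, Csf3r, Ly6g, S100a8, S100a9, Mmp8, Camp and Ltf were added after their values were seen. The values of 1 gene that this rule names are not reported here. Members and lists were chosen with earlier results of these data known. Promoters (8 of 9 members) came from RefSeq and 3′ UTRs from GENCODE M21.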

Additional observations from a re-analysis of the deposited data

How the results depend on the processing

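Over 14 alternatives, 124 of 126 log2 fold changes of the 9 ligands kept their sign and stayed uncalled, with a smallest adjusted p of 0.647. With 1 library left out, Cxcl2 ran from -0.014 (without control replicate 2) to 0.29 and Cxcl13 from -0.038 (without knockout replicate 2) to 0.70. The median of the 9 ligands ran from 0.20, without both libraries richest in B cell RNA, to 0.48 with limma-voom. For all genes, edgeR called 20 genes higher and 18 lower with no filter on low counts, and DESeq2 called 11 higher and 11 lower. With 1 library left out, edgeR called 0 to 8 genes higher and 0 to 10 lower, and 4 higher without both libraries richest in B cell RNA; 0 of these calls under any alternative was a ligand. Of 265 values of 19 other named genes, 11 turned their sign. With 1 library left out, Cxcr4 ran from -0.44 to 0.87, Cxcr5 from -1.32 to 1.41, Cxcr6 from -0.33 to 1.51, Adam10 from -0.12 to 0.014 and Zfp36 from -0.048 to 0.17. Without both libraries richest in B cell RNA, Cxcr4 stood at -0.49, Cxcr5 at 0.38, Cxcr6 at -0.67 and Zfp36l1 at -0.059. The causes were not tested.

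With the replicate number of the titles as a block, 0 genes were called, and Cxcr5 stood at 0.19. The numbers are not said to pair libraries, so the block was left out of the main fit. Across genes, the deviations of same-numbered libraries from their group means correlated at -0.06, -0.07 and 0.15 for replicates 1, 2 and 3. Depth limits Cxcl9 most, at 12 to 39 counts per library, and the low counts of Cxcr1, Cxcr2, Cxcr3, Cxcl5, Cxcl11 and Ppbp put them under the default filter with all 6 libraries.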
